A study of Mus musculus with 4 samples.

Results

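The 8 genes described here, Notch1, Notch2, Notch3, Jag1, Dll4, Hes1, Heyl and Nrarp, belong to the NOTCH pathway and are 8 of the 19321 genes in the deposited table. They were followed in gonads of XX mouse embryos of the C57BL/6 strain, taken once a day from embryonic day E11.5 up to E14.5 (4 stages) and profiled as single cells on the 10x Chromium 3′ platform. No genotype other than the strain and no treatment was given for any group. Each stage was 1 library, so stage and library cannot be told apart, and the number of embryos pooled is not given in the sources used here.

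NOTCH proteins are receptors at the cell surface that bind DLL or JAG ligands on a neighbouring cell. Binding lets an ADAM protease and then gamma-secretase cut the receptor, and the freed intracellular domain enters the nucleus and turns on genes with the DNA-binding protein RBPJ. In vessels the pathway is known for arterial identity and sprouting, and in the gonad for signalling between the vasculature, the interstitium and the supporting cells that surround germ cells.

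Cells were placed in 5 classes by markers that include none of the NOTCH genes. Endothelial cells had UMIs (unique molecular identifiers, counted molecules) of Pecam1 and Cdh5, and interstitial cells of Col1a1 and Tcf21. Supporting cells had at least 3 of Fst, Wnt4, Wnt6, Irx3 and Runx1. Surface epithelial cells had Upk3b with Krt19 or Krt7, and germ cells at least 3 of 6 germ line genes. Of 18970 cells kept, 14020 (73.9%) met exactly 1 rule and 1536 met several. The classes held 428 endothelial, 1299 interstitial, 6596 supporting, 1897 surface epithelial and 3800 germ cells. Further markers that the rules did not use were highest in their own class for 8 of 8 endothelial, 8 of 8 interstitial, 5 of 6 supporting, 5 of 6 surface epithelial and 6 of 6 germ line genes. Lhx2 and Msln were the exceptions. The libraries held 69458291 to 80377418 UMIs, and 175 cell barcodes occurred in more than 1 library. The median germ cell was deeper (15361 to 30979 UMIs) than the median endothelial cell (10544 to 15352.5 UMIs), and a rule that asks for a UMI is met more easily by a deep cell. Shares of cells were therefore taken after thinning each cell to 5000 UMIs.

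The Dll4 gene (chr2:119325784-119335666 on mouse GRCm38.p6, from RefSeq) codes for the main NOTCH ligand of sprouting and arterial endothelium. Its level in endothelial cells, in CPM (the gene's UMIs scaled to the total UMIs of the summed cells), was 24.7, 30.1, 45.3 and 43.1 in stage order. In the 1299 interstitial and 1897 surface epithelial cells no Dll4 UMI was found, in the supporting cells there were 9 and in the germ cells 1. With the absent UMIs set to a floor of 3 over the class, the endothelial level was at least 158-fold higher than the interstitial level and at least 281-fold higher than the surface epithelial level. Against supporting cells the ratio was 301 (exact 95% interval 155 to 666, counting error only). All of these ratios pool the 4 libraries, which the classes hold in different proportions. Endothelial cells were 2.26% of all cells kept, and they carried 87.5%, 93.0%, 63.2% and 62.9% of all Dll4 UMIs in stage order. Among single endothelial cells at 5000 UMIs, 6.82%, 17.8%, 24.4% and 16.7% had a Dll4 UMI in stage order, with a Clopper-Pearson 95% interval of 15.8 to 34.9 at E13.5. Erythroid cells, taken as a background class because 20% or more of their UMIs were globin, had none in 215 thinned cells. Most endothelial cells thus had no Dll4 UMI at this depth, and most Dll4 UMIs outside the class were in cells that met several rules or none.

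The Jag1 gene (chr2:137081451-137116520), a second type of ligand, was sparse everywhere. Endothelial cells had 5.29, 7.44, 8.50 and 5.88 CPM in stage order, and interstitial cells 4.68, 4.30, 3.59 and 0.886 CPM. In supporting, surface epithelial and germ cells it stayed between 0.101 and 1.61 CPM. The endothelial and interstitial levels did not overlap across the 4 libraries, with means of 6.78 ± 1.46 and 3.36 ± 1.71 CPM (SD, n = 4). The Poisson intervals of the lowest endothelial library (12 UMIs, 2.74 to 9.25 CPM) and the highest interstitial library (18 UMIs, 2.77 to 7.40 CPM) did overlap. The mean levels of germ, supporting and surface epithelial cells followed below in that order. Their ranges overlapped with each other and with the interstitial range, since the interstitial level at E14.5 was only 0.886 CPM.

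Among the receptors, Notch1 (chr2:26457902-26503822) had its highest level in endothelial cells, at 80.7, 81.2, 115 and 106 CPM in stage order. Germ cells came next with 14.51, 15.9, 16.3 and 9.64 CPM, followed by interstitial cells with 7.28, 12.9, 10.6 and 14.2 CPM. Supporting cells had 0.844, 0.779, 0.591 and 2.40 CPM, and surface epithelial cells 1.31, 2.09, 1.01 and 0.536 CPM. The order was thus endothelial, then germ and interstitial cells with overlapping levels, then surface epithelial and supporting cells, which also overlapped. Germ and interstitial cells differed by 0.18 on the log2 scale (limma, 95% interval -0.08 to 0.45, adjusted p = 0.205).

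A Notch1 UMI was present in 7.59%, 8.22%, 8.60% and 4.93% of germ cells thinned to 5000 UMIs. Supporting cells thinned alike had one in 0.292% to 0.613%, and none of 84 erythroid cells at E11.5 had one, which allows a share of up to 3.57%. Before thinning the germ cell share at E11.5 was 35.7%, at a median depth of 30979 UMIs against 26364 in the erythroid cells. Germ cells were 4.67% of the cells kept at E11.5 and 48.4% at E14.5. Their share of all Notch1 UMIs was 21.8% in the first library and 63.3% in the last, and the endothelial share 38.3% and 9.39%.

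The Notch2 receptor gene (chr3:98013538-98150367) was highest in interstitial cells and low in germ and endothelial cells. Interstitial cells had 40.8, 48.3, 45.5 and 40.3 CPM, and supporting cells 27.5, 30.6, 37.8 and 39.0 CPM. Surface epithelial cells had 18.3, 22.4, 23.5 and 23.3 CPM, and germ cells 4.33, 5.57, 8.23 and 9.11 CPM. Endothelial cells had 3.09, 1.94, 0 and 7.84 CPM, where the 0 UMIs at E13.5 allow up to 2.83 CPM. The ranges of neighbouring classes in this order did not overlap, except for germ and endothelial cells. The difference between interstitial and supporting cells was 0.30 on the log2 scale (95% interval 0.03 to 0.58) and missed the threshold (limma, adjusted p = 0.0663), while that between supporting and surface epithelial cells was 0.45 (adjusted p = 0.0108).

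For Notch3 (chr17:32120820-32166896), a receptor known from perivascular and mesenchymal cells, interstitial cells stood highest and varied little, at 16.6, 17.8, 18.6 and 16.8 CPM. Surface epithelial cells had 5.45 to 7.63 CPM, supporting cells 3.86 to 4.88, endothelial cells 1.89 to 3.92 and germ cells 0.663 to 0.837 CPM. Interstitial and surface epithelial cells differed by 0.76 on the log2 scale (limma, 95% interval 0.60 to 0.91). The step from surface epithelial to supporting cells was 0.18 (0.02 to 0.34) and missed the threshold. So did that from supporting to endothelial cells, at 0.18 (0.02 to 0.33). Notch3 was in this fit only because it was high in interstitial cells, so no p is given for these differences. At 5000 UMIs, 8.13% to 9.60% of interstitial cells had a Notch3 UMI, against none of the 215 erythroid cells. The sum of the 11 perivascular markers in the table was also highest in interstitial cells, at 314 to 588 CPM. It was 67.6 to 151 CPM in endothelial cells and at most 124 CPM elsewhere. This did not hold for every marker. In interstitial cells 1 of the 11 had no UMI. Mcam had 32.5 to 80.0 CPM in endothelial cells without a Dll4 UMI and was too low in interstitial cells to be tested within that class. The part of these markers in the Notch3 level was not tested here beyond the comparison within the class given further on.

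**Figure D1:**
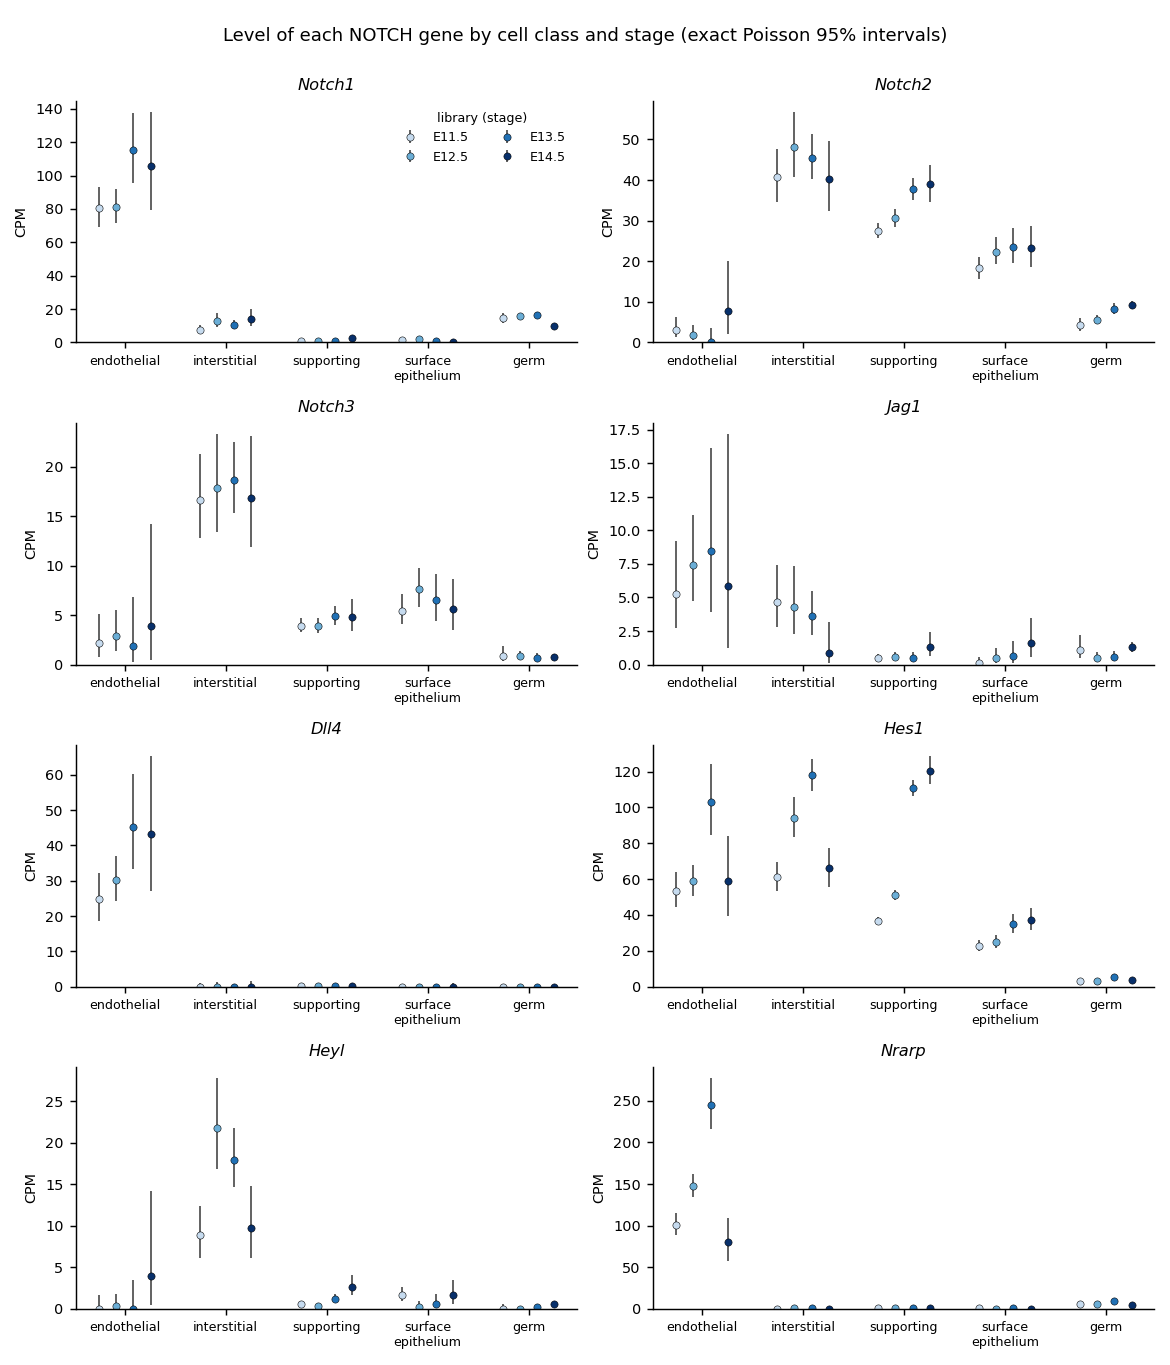
Level of each of the 8 NOTCH genes in CPM (vertical axes, linear, a scale of its own per gene) by cell class, with 1 point per library coloured by stage and exact Poisson 95% intervals. Endothelial cells held the highest points of Notch1, Dll4 and Nrarp (80.4 to 246 CPM for Nrarp), interstitial cells those of Notch2, Notch3 and Heyl, and Hes1 was high in 3 classes.

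The target genes are switched on by NOTCH signalling in many tissues. Nrarp (chr2:25180758-25183339), a target that also feeds back to limit the pathway, had 101, 148, 246 and 80.4 CPM in endothelial cells. Germ cells had 5.86, 5.04, 9.55 and 4.08 CPM, and the other classes 0 to 0.666 CPM in any library. The pooled endothelial level was 25.1-fold that of germ cells (exact 95% interval 22.4 to 28.1) and 420-fold that of supporting cells (291 to 631). Both intervals cover counting error only, and the classes hold the pooled libraries in different proportions, so the ratio within a library can lie outside them. Endothelial levels were above germ levels in all 4 libraries, and germ levels above those of the remaining classes in all 4. At 5000 UMIs a Nrarp UMI was found in 38.6%, 50%, 62.8% and 36.1% of endothelial cells and in 3.12%, 2.85%, 5.08% and 1.81% of germ cells. The germ cell share at E11.5 was no higher than that of erythroid cells there (4 of 84, 4.76%, interval 1.31 to 11.7), while supporting cells were at 0 to 0.175%.

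Hes1 (chr16:30065357-30067796), a transcriptional repressor that also answers to signals other than NOTCH, was spread over 3 classes. Interstitial cells had 61.1, 94.2, 118 and 66.0 CPM, endothelial cells 53.4, 58.9, 103 and 58.8 CPM, and supporting cells 36.6, 51.2, 111 and 121 CPM. Surface epithelial cells had 22.9, 25.1, 35.1 and 37.3 CPM and germ cells 3.35, 2.96, 5.30 and 3.81 CPM. The interstitial, supporting and endothelial ranges overlapped, and neighbouring classes among these 3 differed by 0.17 (95% interval -0.25 to 0.59) and 0.10 (-0.32 to 0.52) on the log2 scale. Endothelial against surface epithelial cells (0.95, adjusted p = 0.000588) and surface epithelial against germ cells (1.52, adjusted p = 2.36e-06) passed limma's threshold. Among germ cells at 5000 UMIs the share with a Hes1 UMI was 0.893% to 2.40%. Of the erythroid cells outside the classes, 3 of 41 had one at E14.5 (7.32%, interval 1.54 to 19.9) and at E11.5 none of 81, a count that leaves room for up to 3.70%. The germ cell share was thus not shown to lie above this background.

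Heyl (chr4:123233556-123249870), a target known from vessel walls, was an interstitial gene with 8.84, 21.8, 17.9 and 9.75 CPM. The pooled level there was 18.0-fold that of supporting cells (exact 95% interval 13.8 to 23.8), 14.98-fold that of surface epithelial cells, 34.98-fold that of endothelial cells (11.8 to 171, with 3 endothelial UMIs) and 50.7-fold that of germ cells. These ratios pool libraries that the classes hold in different proportions. By library Heyl had 0.584, 0.371, 1.18 and 2.66 CPM in supporting cells and 1.62, 0.246, 0.609 and 1.61 CPM in surface epithelial cells, so the interstitial lead over supporting cells was smallest at E14.5. Cells that met no rule had 4.01, 9.68, 17.3 and 4.69 CPM of Heyl, and carried 48.6%, 49.7%, 48.1% and 35.2% of its UMIs. The 5 classes therefore left out about as many Heyl UMIs as they held at the first 3 stages, more than for any other of the 8 genes. For Notch3 and Hes1 the E13.5 level in cells of no class was likewise high, at 13.1 and 98.05 CPM.

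**Figure D2:**
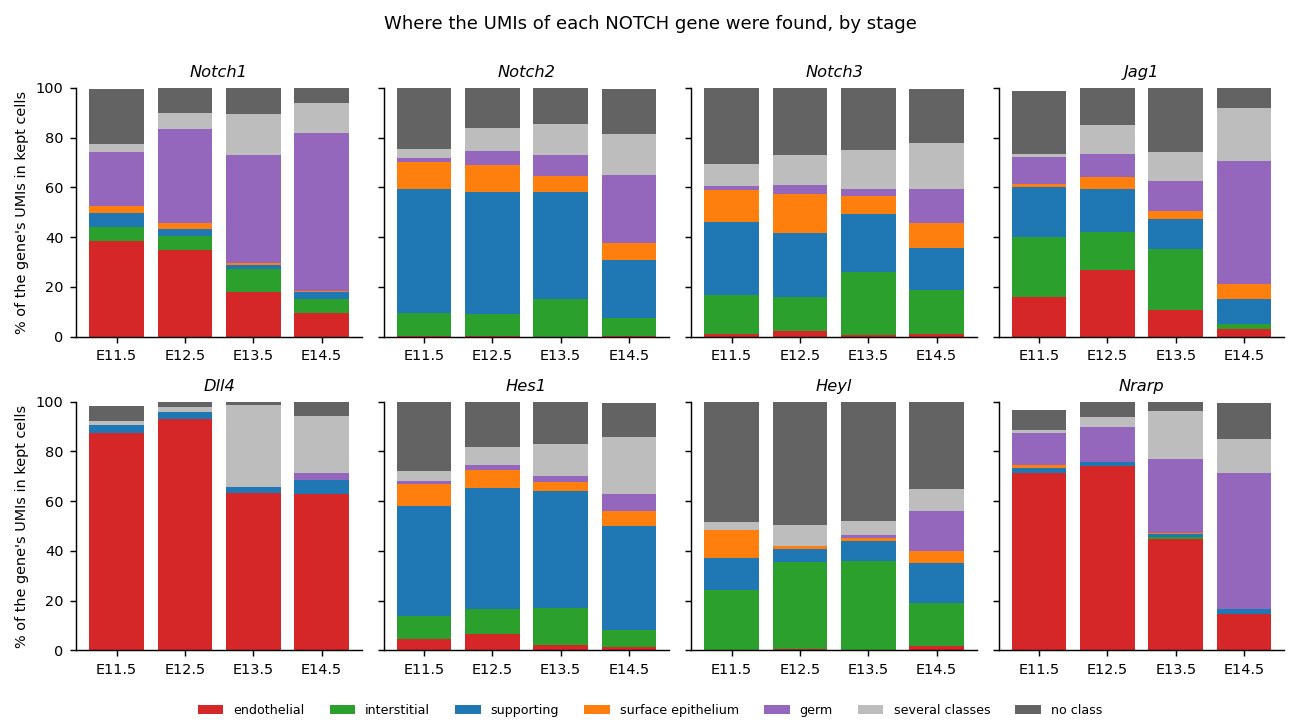
Share of each gene's UMIs (vertical axis, percent of UMIs in the cells kept) found in each class, in cells that met several rules and in cells that met none, by stage; the small remainder to 100% lies in erythroid cells outside the classes. The endothelial part of Dll4 stayed at 62.9% or more, the germ part of Notch1 reached 63.3%, and cells of no class held 35.2% to 49.7% of Heyl.

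To ask which classes differ, UMIs were summed per class and library and each class was set against the mean of the other 4 with limma on log2(CPM + 10), with the library as a block (20 sums). A gene was called at an adjusted p under 0.05 with a difference of at least 1 on this log2 scale, which understates the change of low genes. The 4 libraries served as replicates. The library block takes out stage differences that all classes share, so the spread holds only those that differ between classes. Of the 8 genes, 6 passed the filter of 10 CPM in at least 4 sums, and Jag1 and Heyl did not. Dll4 and Nrarp passed it only through the 4 endothelial sums and Notch3 only through the 4 interstitial sums. These 3 genes were therefore in the test because they were high in those classes, so their adjusted p is given from a fit with no filter, and nothing is read from counts over the 6.

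In endothelial cells 3 genes were called higher and 1 lower, and 8.28% and 4.3% of the 9428 genes tested were called in these directions. Notch1 was higher by 2.72 ± 0.10 (SE, adjusted p = 6.00e-14), in 4 of 4 libraries. Nrarp was higher by 3.63 ± 0.14 (8.77e-11 with no filter) and Dll4 by 2.16 ± 0.08 (1.55e-11 with no filter), each in 4 of 4 libraries. Notch2 differed by -1.37 ± 0.10 (adjusted p = 1.94e-09). So the Notch1 receptor, its ligand Dll4 and the target Nrarp were highest in the same class, in which Notch2 was lowest.

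Interstitial cells were higher in Notch2 (1.20 ± 0.10, adjusted p = 2.93e-08), Hes1 (1.10 ± 0.16, 1.51e-05) and Notch3 (1.04 ± 0.06, 1.27e-09 with no filter) and lower in Nrarp (-1.12 ± 0.14). There 4.58% of genes were called higher and 1.25% lower. The mean that interstitial cells were set against holds the endothelial sums, where Nrarp was highest. Mean Nrarp levels in interstitial, supporting and surface epithelial cells were alike, at 0.211, 0.405 and 0.202 CPM. The call of Hes1 was lost without the E12.5 library (0.97) and with class markers read at 5000 UMIs (0.87), and that of Notch3 fell just under the size limit with median-of-ratios scaling (0.99). In a fit with no filter on low values, Heyl was higher by 1.15 (adjusted p = 2.68e-06) and Jag1 differed by 0.14 without passing.

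In supporting cells Notch1 (-1.32 ± 0.10) and Nrarp (-1.08 ± 0.14) were lower and none was higher, against 2.77% and 6.09% of all genes. Notch2 (0.82) and Hes1 (0.89) lay above the other classes with adjusted p of 2.33e-06 and 0.000105 but under the size limit, and both passed it with voom weights (1.56 and 1.31). Hes1 also passed it without the E11.5 (1.08) or the E12.5 (1.01) library. Surface epithelial cells were lower in the same pair, Notch1 (-1.30 ± 0.10) and Nrarp (-1.12 ± 0.14), where 1.11% of genes were lower and 3.01% higher. The mean that each of these classes was set against holds the endothelial sums, where both genes were highest. Without the E13.5 library the supporting difference of Nrarp was -0.98. Germ cells were lower in Hes1 (-2.32 ± 0.16, adjusted p = 2.43e-10) and in no other of the 6, against 15.4% of all genes lower and 6.33% higher. Notch1 in germ cells differed from the mean of the other classes by 0.06 (95% interval -0.15 to 0.28). With voom weights, which use no pseudocount of 10 CPM, Notch1 (1.23) and Nrarp (2.09, against -0.31 on the log2(CPM + 10) scale) were called higher in germ cells. The sign of the Nrarp difference in germ cells thus depended on the scale. When cells of several classes were counted in each, the calls of Notch2 in endothelial cells (-0.76) and of Notch2 (0.98), Notch3 (0.89) and Hes1 (0.83) in interstitial cells were lost. With a pseudocount of 50 CPM the lower genes, the 3 higher interstitial genes and Dll4 in endothelial cells (0.77) fell under the size limit, apart from Hes1 in germ cells.

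**Figure D3:**
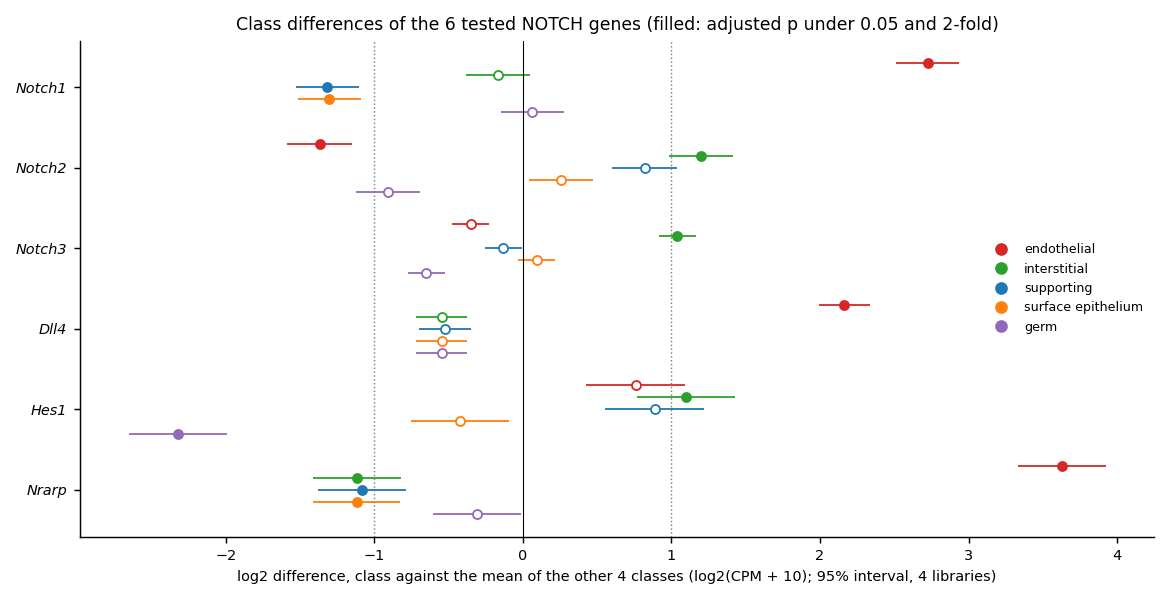
Difference of each class from the mean of the other 4 (horizontal axis, log2(CPM + 10) scale, 95% interval over 4 libraries) for the 6 genes tested, coloured by class; filled points passed the threshold and dotted lines mark a difference of 1. Endothelial points stood apart for Nrarp (3.63), Notch1 (2.72) and Dll4 (2.16), and the germ point for Hes1 (-2.32).

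The other pathway genes, a list of 38 receptors, ligands, enzymes, nuclear partners and regulators, were read in the same fit, and 25 passed the filter. In endothelial cells 3 were higher and 1 was lower, against 8.28% and 4.3% of all genes tested. Mfng, a fringe glycosyltransferase that changes which ligands a NOTCH receptor answers to, had 139, 172, 188 and 139 CPM there and differed by 4.01 ± 0.07. A second fringe gene, Lfng, was higher by 1.63 and the coactivator Maml2 by 1.03. Dlk1, a NOTCH-like ligand that lacks the receptor-binding domain of the DLL family, was lower by 1.94 ± 0.21 in endothelial cells and higher by 3.02 ± 0.21 in interstitial and 2.34 ± 0.21 in surface epithelial cells. Adam10, the protease of the first receptor cut, was higher in supporting cells (1.04 ± 0.14), a call lost with median-of-ratios scaling (0.97). Germ cells were lower in 5 of 25, where 15.4% of all genes were lower: Dlk1 (-2.94), Adam10 (-1.57), Maml3 (-1.39), Aph1a (-1.10) and Mfng (-1.01). Aph1a and Mfng fell under the size limit with median-of-ratios scaling (-0.90 and -0.99). Mfng was also lower in surface epithelial cells (-1.02). Rbpj, the nuclear partner shared by all receptors, was called in no class, with means of 24.3 to 44.4 CPM.

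Since Dll4, Notch1 and Nrarp were highest in the same class, the 250 bases before their transcription starts were read from the RefSeq promoter table (GRCm38.p6). The motif searched was the RBPJ core TGGGAA on either strand, printed in capitals where present. It occurred in 21.6% of all 32851 promoters of that length, in 11 of 32 other pathway genes and in 0 of the 6 NOTCH genes found in the table (Hes1 and Heyl were not matched). The 3 windows below, each 5′ to 3′ on the gene's strand, thus hold no capitals, and those of Hes5 and Lfng, with 2 matches each, are shown for comparison.
Notch1, chr2:26503823-26504072, minus strand: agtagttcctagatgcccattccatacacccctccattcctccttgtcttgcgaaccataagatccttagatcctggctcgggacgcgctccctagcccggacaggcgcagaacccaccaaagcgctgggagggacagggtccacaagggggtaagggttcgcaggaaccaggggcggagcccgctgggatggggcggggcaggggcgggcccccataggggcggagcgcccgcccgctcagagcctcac
Dll4, chr2:119325534-119325783, plus strand: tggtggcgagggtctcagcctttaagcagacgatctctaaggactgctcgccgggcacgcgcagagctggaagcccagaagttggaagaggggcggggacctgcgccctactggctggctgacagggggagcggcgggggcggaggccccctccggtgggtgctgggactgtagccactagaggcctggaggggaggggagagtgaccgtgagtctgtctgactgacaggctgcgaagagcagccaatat
Nrarp, chr2:25180508-25180757, plus strand: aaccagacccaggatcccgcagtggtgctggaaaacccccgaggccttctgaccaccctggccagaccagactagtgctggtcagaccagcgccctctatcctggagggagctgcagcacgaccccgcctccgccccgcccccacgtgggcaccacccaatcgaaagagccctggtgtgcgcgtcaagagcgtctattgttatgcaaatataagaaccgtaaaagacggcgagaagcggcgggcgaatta
Hes5, chr4:154960673-154960922, plus strand: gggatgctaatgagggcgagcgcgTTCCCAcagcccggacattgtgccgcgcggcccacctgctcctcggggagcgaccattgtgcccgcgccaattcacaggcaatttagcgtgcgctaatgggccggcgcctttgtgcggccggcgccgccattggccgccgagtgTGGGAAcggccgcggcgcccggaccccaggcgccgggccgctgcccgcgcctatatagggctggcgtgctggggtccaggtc
Lfng, chr5:140607091-140607340, plus strand: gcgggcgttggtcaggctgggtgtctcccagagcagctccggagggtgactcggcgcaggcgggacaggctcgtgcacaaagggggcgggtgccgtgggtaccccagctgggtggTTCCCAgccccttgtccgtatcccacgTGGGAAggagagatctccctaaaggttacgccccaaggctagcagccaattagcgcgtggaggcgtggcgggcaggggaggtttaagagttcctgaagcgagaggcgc

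A match of these letters is a description of the window and not a measured binding site. The Hes5 gene, a target of NOTCH in neural tissue, had 4.19, 6.55, 10.3 and 11.6 CPM in germ cells, and Lfng had 40.2, 24.6, 60.4 and 31.4 CPM in endothelial cells.

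Changes with stage were described within a class as the ratio of E14.5 to E11.5 CPM with the exact binomial interval of the 2 counts. With 1 library per stage there was no test. A gene was counted as changed at a ratio of at least 2, with at least 20 UMIs over both libraries and an interval that left out a ratio of 1. In supporting cells 4 of the 6 NOTCH genes with enough UMIs were higher at E14.5, against 12.6% of the 13573 genes measured there. Hes1 was 3.30-fold higher (3.02 to 3.60), from 1127 UMIs at 36.6 CPM to 906 UMIs at 121 CPM. Most of this lay between E12.5 and E13.5, where the log2 ratio was 1.11 (1.02 to 1.21), and the share of thinned supporting cells with a Hes1 UMI went from 14.2% and 19.7% to 36.7% and 37.9%. The later 2 stages thus stood apart from the earlier 2.

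The other 3 were low throughout. Heyl was 4.56-fold higher in supporting cells (2.29 to 9.14), from 0.584 to 2.66 CPM. Notch1 was 2.84-fold higher, from 0.844 to 2.40 CPM, and Jag1 2.73-fold higher, from 0.487 to 1.33 CPM with 15 and 10 UMIs. Notch2 had a ratio of 1.42 and Notch3 of 1.22. The median log2 ratio of the 6 was 1.48, against 0.10 over all genes. The median depth of supporting cells went from 13814 to 9508.5 UMIs, and with class markers read at 5000 UMIs Hes1 (log2 ratio 1.88) and Notch1 (2.03) were the 2 genes counted. Heyl and Jag1 had too few UMIs to be measured under that setting. Within supporting cells, summed erythroid markers ranged from 1621 to 14165 CPM over the libraries. Summed interstitial markers within supporting cells ranged from 104 to 299.9 CPM, and summed germ line markers from 5.49 to 34.1 CPM. The part of such UMIs in these ratios was not tested. Without globin-rich cells the Hes1 log2 ratio was 1.74.

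In interstitial cells the target genes were highest at the middle stages instead. Hes1 had 61.1, 94.2, 118 and 66.0 CPM in stage order, and its E14.5 to E11.5 ratio was 1.08 (log2 0.11, interval -0.19 to 0.41). Heyl rose from 8.84 to 21.8 CPM between E11.5 and E12.5 (log2 ratio 1.30, interval 0.69 to 1.94). Jag1 was the 1 of 6 genes counted as lower and none was higher (4.84% and 4.92% of all genes), from 18 UMIs to 2, and Notch2 and Notch3 had ratios of 0.988 and 1.01. Notch1 lay just under the limit at a log2 ratio of 0.96. It passed in cells of at least 10000 UMIs (1.24), with median-of-ratios scaling (1.07) and with class markers read at 5000 UMIs (1.501). Jag1 was not counted when cells of several classes were included (log2 ratio -0.68), and it had too few UMIs to be measured in cells of at least 10000 UMIs or with class markers read at 5000 UMIs.

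Endothelial cells numbered 132, 174, 86 and 36, which limited precision at E14.5. None of the 4 genes measured was counted as changed between E11.5 and E14.5, where 4.69% of genes were higher and 3.65% lower. Nrarp had a peak at E13.5 and was lower at E14.5 by a log2 ratio of -1.61 (-2.12 to -1.13), from 260 UMIs to 41, and Hes1 by -0.81 (-1.44 to -0.21). Nrarp in germ cells also fell between these libraries, from 9.55 to 4.08 CPM (log2 ratio -1.23, interval -1.55 to -0.91), as did Hes1 in interstitial cells (-0.84). Not all target genes went this way over the same step. Hes1 had a log2 ratio of 0.12 in supporting cells and went from 35.1 to 37.3 CPM in surface epithelial cells, and Hes5 in germ cells went from 10.3 to 11.6 CPM. Dll4 went from 24.7 to 43.1 CPM (log2 ratio 0.80, interval 0.02 to 1.54) and Notch1 from 80.7 to 106 CPM.

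In germ cells 1 of 7 NOTCH genes was counted as higher, Notch2 at 2.11-fold, against 29.2% of all genes higher and 9.3% lower. The count was lost with median-of-ratios scaling (log2 ratio 0.71). Notch1 had a ratio of 0.664, from 14.51 to 9.64 CPM. In surface epithelial cells 0 of 4 were counted (8.16% of genes higher, 3.05% lower), with Hes1 at a ratio of 1.63.

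Of the other pathway genes, 13 of 35 measured in germ cells were higher and 4 lower at E14.5, with a median log2 ratio of 0.20. Over all genes in germ cells 29.2% were higher and 9.3% lower, with a median of 0.44. Adam10 went from 5.44 to 27.9 CPM, the ligand genes Dll3 from 8.79 to 24.7 and Dll1 from 1.95 to 6.04, and Jag2 from 0.837 to 4.95 CPM. Fbxw7, a ubiquitin ligase subunit that marks the NOTCH intracellular domain for breakdown, went from 26.9 to 96.5 CPM. The target gene Hey1 moved the other way, with 42.3, 32.6, 18.9 and 4.50 CPM in stage order, a 9.39-fold lower level at E14.5. In supporting cells Hey1 also went down, from 51.9 to 20.8 CPM, while Hes1 and Heyl went up, and Dtx1, a regulator of receptor turnover, rose from 2.76 to 16.2 CPM. Target genes of the pathway thus moved in both directions within 1 class. In endothelial cells 2 of 25 other pathway genes were counted as higher at E14.5, Fbxw7 (2.42-fold) and Spen (2.47-fold, 10 UMIs), and 2 as lower, Hey1 (17.6 CPM) and Notch4 (2 UMIs), against 4.69% and 3.65% of all genes.

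Within the endothelial class, cells with a Dll4 UMI were compared with cells without one, after thinning to 5000 UMIs and summing per library (8 sums, library as a block). The cells with a UMI numbered 9, 31, 21 and 6 in stage order, against 123, 143, 65 and 30, and a Dll4 UMI missed by chance puts a cell in the second group. Of 8591 genes tested 18 (0.21%) were higher and 14 (0.163%) lower, not counting Dll4, which chose the cells. None of the 5 other NOTCH genes tested was called. Nrarp was higher in 4 of 4 libraries by 0.62 (95% interval 0.13 to 1.10, limma, adjusted p = 0.313) and Notch1 in 4 of 4 by 0.29 (-0.30 to 0.89). Hes1 differed by -0.03 (-0.72 to 0.65). Of the 5, 2 had an unadjusted p under 0.05, Nrarp and Jag1 (1.04, adjusted p = 0.479), and voom weights called none of them (adjusted p of 0.0802 for Nrarp). The filter here was 10 CPM in 2 sums, and Jag1 and Notch3 passed it only through sums with a Dll4 UMI. Nothing is therefore read from their p or from counts over the 5.

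The genes higher with Dll4 included arterial ones. Gja4, a connexin of arterial endothelium, had 311, 484, 829 and 833 CPM with and 124, 99.3, 151 and 13.3 CPM without a Dll4 UMI. The groups did not overlap, and the difference was 2.75 ± 0.22 (limma, adjusted p = 4.65e-31). In this comparison limma took each SE from a spread shared by all genes at a like level. The SE and p thus do not measure the spread of Gja4, or of any other single gene, over the 4 libraries. The target gene Hey1 had 178, 142, 248 and 66.7 CPM with and 32.5, 49.0, 36.9 and 13.3 CPM without (1.92 ± 0.36, adjusted p = 9.08e-05), also with no overlap. The lowest Hey1 value with Dll4, 66.7 CPM at E14.5, came from very few UMIs in 6 thinned cells, so the lack of overlap is weakly held. The guidance receptor Unc5b was higher by 1.65 ± 0.34 (adjusted p = 0.000708). Of 9 arterial genes tested these 3 were called, and of 5 venous genes Nrp2 was lower (-1.49 ± 0.41, adjusted p = 0.0335) in 4 of 4 libraries. The median over the arterial genes was 0.80 and over the venous genes -0.73, against -0.11 over all genes. Of the arterial genes, Gja5 and Cxcr4 passed the filter only through sums with a Dll4 UMI. Nothing is therefore read from the count or the median over the 9 arterial genes.

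Outside these lists the largest differences were those of Sat1, a polyamine enzyme (2.41), 8430408G22Rik (1.81), Esm1 (1.70), a gene of endothelial tip cells, Aqp1 (1.51), Efna1 (1.29), Mecom (1.27) and Ptp4a3 (1.25). The largest in the other direction were Epb41l4aos (-2.12), Zc3h13 (-1.79), Fos (-1.50), 2210013O21Rik (-1.43), Homer3 (-1.41), Smc6 (-1.34), Itga6 (-1.27), Dok4 (-1.24) and Klf2 (-1.18), a gene induced by blood flow. Several of these calls did not go one way in every library. Klf2 was higher with Dll4 in 2 of 4 libraries and had 0 CPM in the 6 cells at E14.5. Fos, Homer3, Smc6, Zc3h13, Itga6 and 2210013O21Rik were higher with Dll4 in 1 of 4, and Ptp4a3 was higher in 3 of 4. Without the library block 3 genes were called and Hey1 and Unc5b were not among them. Hey1 (1.74) and Unc5b (1.59) also missed the threshold without the E13.5 library, and Unc5b without E14.5 (1.06). The Nrp2 call was lost without E11.5 (-0.99), E12.5 (-1.70) or E13.5 (-1.61), with no thinning (-0.59) and with voom weights (-1.13). Dok4 changed sign with no thinning (0.19). Gja4 and Sat1 passed under every setting tried.

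**Figure D4:**
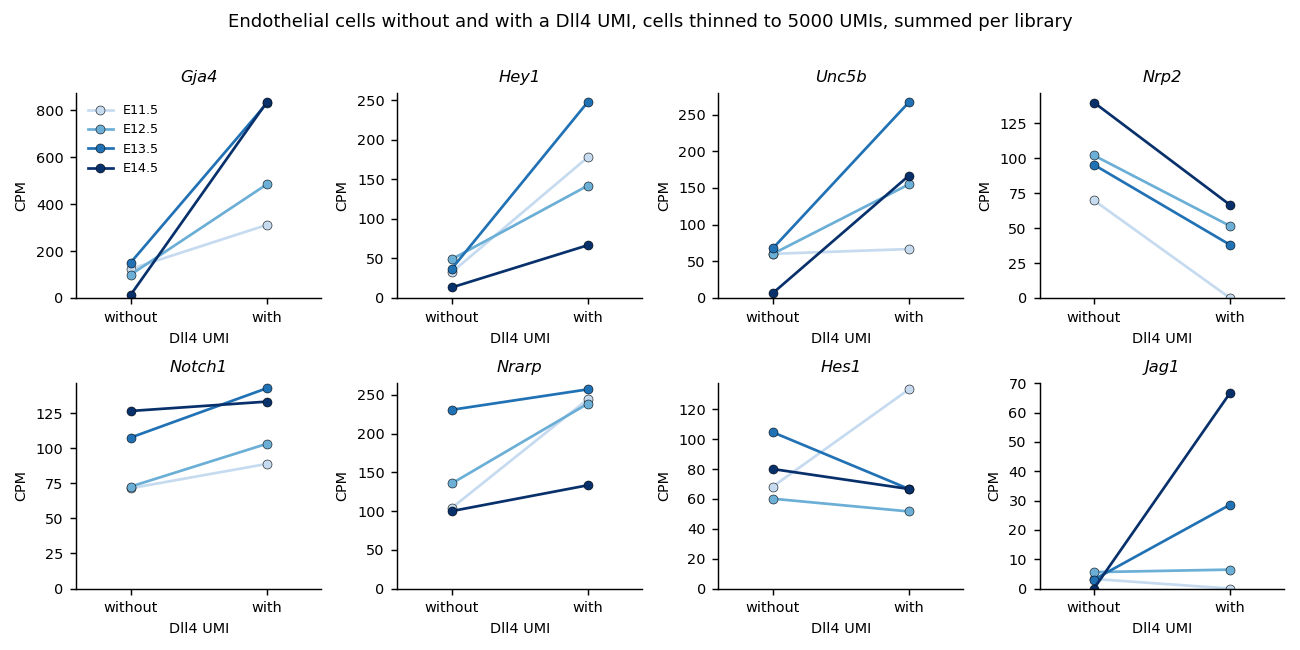
CPM (vertical axes, linear) in endothelial cells without and with a Dll4 UMI, each line 1 library coloured by stage, cells thinned to 5000 UMIs and summed. Gja4 and Hey1 lie higher with Dll4 in all 4 libraries without overlap, Nrp2 lies lower in all 4, and Notch1, Nrarp, Hes1 and Jag1 did not pass the test. The E14.5 points with Dll4 come from 6 cells, and that of Hey1 from very few UMIs.

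Interstitial cells with a Notch3 UMI (26, 17, 57 and 19 cells) were compared in the same way with those without (268, 192, 537 and 183). Of 9273 genes tested 1 was higher (0.0108%) and 4 were lower (0.0431%), not counting Notch3, which chose the cells. The higher gene was Lum, a matrix proteoglycan, with 123, 23.5, 119 and 232 CPM against 61.9, 6.25, 39.5 and 90.7 CPM (1.15 ± 0.24, adjusted p = 0.0302). Here too limma took most of each SE from a spread shared by genes at a like level. The SE and p are thus no measure of the spread of Lum alone over the 4 libraries. The lower genes were Nol12, Tmem60 and the globin genes Hba-a1 and Hbb-bt. Hba-a1 had 162, 106, 168 and 274 CPM with and 158, 796, 176 and 1185 CPM without a Notch3 UMI, and Hbb-bt 92.3, 35.3, 87.7 and 147 against 83.6, 305, 83.4 and 849 CPM. Both globin genes were thus far lower with Notch3 at E12.5 and E14.5 and at like levels at the other 2 stages. None of the 5 NOTCH genes tested was called or had an unadjusted p under 0.05. Heyl had 7.69, 35.3, 31.6 and 31.6 CPM with and 11.2, 18.8, 16.8 and 7.65 CPM without, higher in 3 of 4 libraries by 0.57 (95% interval -0.13 to 1.27). With voom weights Jag1 was called (1.99, adjusted p = 0.0169). It passed the filter of 10 CPM in 2 sums only through the sums with a Notch3 UMI at E11.5 and E12.5 (15.4 and 11.8 CPM). Nothing is therefore read from this call, which rests on few UMIs. The perivascular genes Rgs5 (1.10, adjusted p = 0.259) and Kcnj8 (1.13, adjusted p = 0.263) were higher in 4 of 4 libraries without passing, and 0 of 9 perivascular genes tested were called. The 5 calls became 3 without E11.5, 1 without E12.5 and 0 without E14.5.

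Across the 20 class and library sums, likeness of pattern was described by Pearson's r of log2(CPM + 10), with no test, since the sums share libraries and 5 classes set most of the spread. Dll4 and Nrarp had an r of 0.97, Notch1 and Nrarp 0.94, Notch1 and Dll4 0.91, and Notch3 and Heyl 0.89. Notch1 and Notch2 ran against each other at -0.72. The genes most like Dll4 were Clec14a, Nrros and Gpihbp1 (0.997 to 0.998), and those most like Nrarp were Arhgap27, Madcam1 and Prex2 (0.99 each). Tgfb1, Pcdh1 and Grrp1 were most like Notch1 (0.97 each), and Lrp1, Ptpn13 and Efnb1 most like Notch2 (0.97 each). For Notch3 they were Lbh, Rnd3 and Col26a1 (0.97 to 0.98), and for Jag1 Ebf1, Uvrag and Fmnl3 (0.94 to 0.97). Hes1 was most like Tgfb1i1, Eva1b and Fndc3b (0.94 to 0.95), and Heyl most like Tac2, Dnm3os and Cyp1b1 (0.94 to 0.96).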

How the data were processed

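Gonad cells of 4 stages were profiled with 10x Chromium 3′ version 2 libraries. Cell Ranger 2.2.0 and build mm10 are named in the submitters' processing notes; cell calling and filters are not given in the sources used here. The deposited values are natural log values per cell. Back-transformed, they sum to 10000 in each of 19387 cells, and all values are whole multiples of the cell's smallest value at a relative tolerance of 1e-06 (100%), so UMI counts were read back from them.

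Cells above 20% mitochondrial UMIs (5) and doublets (414, called per library by the Scrublet method in scanpy 1.11.5 at a rate of 0.06, seed 1) were removed. Genes, classes and gene lists were chosen with earlier results of these data known, and the arterial, venous and perivascular lists are of the same kind. UMIs were summed per class and library, and sums were tested with limma 3.58.1 (R 4.3.3, mean-variance trend) on log2(CPM + 10), with Benjamini-Hochberg adjustment over all genes tested. The reported fits used no count model, since the deposited unit is a log value. Voom weights, taken from the UMI counts read back, were used as an alternative. The class fit was tested on simulated data. In fits without 1 library the filter asked for 10 CPM in 3 sums. In each list the text names the genes called, up to 10 each way or 12 of the pathway, and the 3 most like genes. Ratios and levels carry exact 95% binomial and Poisson intervals, which cover counting error only; ratios against 0 UMIs use a floor of 3. Alternatives changed the pseudocount (1 and 50 CPM), filter, scaling, weights, block, class rules, doublets, depth and libraries.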

Additional observations from a re-analysis of the deposited data

Results flagged for a closer look

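Jag1 moved in opposite directions in 2 classes between E11.5 and E14.5. It went from 15 UMIs (0.487 CPM) to 10 UMIs (1.33 CPM) in supporting cells and from 18 UMIs (4.68 CPM) to 2 UMIs (0.886 CPM) in interstitial cells, a gap of 3.85 between the 2 log2 ratios. Each class had 1 library per stage, so the difference was not tested.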

How the results depend on the processing

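The 3 NOTCH genes called higher in endothelial cells numbered 2 to 4 over the alternatives. In the order endothelial, interstitial, supporting, surface epithelial and germ, the classes had 1186, 550, 835, 389 and 2053 genes called. A pseudocount of 1 CPM gave 2366, 1459, 1903, 1157 and 3857, one of 50 CPM gave 342, 130, 197, 78 and 481, and voom weights gave 2291, 1561, 2139, 1332 and 4030. Counting cells of several classes in each gave 687 in endothelial and 504 in supporting cells. Of the NOTCH genes, a pseudocount of 50 CPM called 0 lower in endothelial, interstitial, supporting and surface epithelial cells and 0 higher in interstitial cells. Counting cells of several classes called 0 lower in endothelial, interstitial and supporting cells and 0 higher in interstitial cells. Class markers read at 5000 UMIs called 1 higher in interstitial and 2 lower in germ cells. A pseudocount of 1 CPM and voom weights each called 2 lower in interstitial, 2 higher in supporting and 4 lower in germ cells, and voom weights called 2 higher in germ cells. Without each library in turn, supporting cells had 0 to 1 higher and 1 to 2 lower. Signs turned for Notch1 in interstitial cells (0.42 at a pseudocount of 1 CPM and 0.79 with voom weights, from -0.17), Notch3 in supporting cells (0.086 with voom weights, from -0.13), Nrarp in germ cells (0.77 and 2.09, from -0.31) and Notch1 in germ cells (-0.12 at 50 CPM, from 0.06); each lay under the size limit in the reported fit.

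Every library held all classes, so the block was the library, and without the replicate block the Dll4 comparison had 3 calls in place of 32 and the Notch3 comparison 0 in place of 5. The Dll4 comparison had 6 calls at a pseudocount of 1 CPM, 8 at 50 CPM, 17 with no filter, 170 with voom weights and 18 to 24 without 1 library (18 without E11.5, 20 without E13.5). The Notch3 comparison had 0 at 1 CPM, 2 at 50 CPM, 0 with no filter, 126 with voom weights and 0 to 6 without 1 library. The voom weights in these comparisons within a class, and leaving out globin-rich cells in the others, were chosen after seeing the data. Signs turned for Dok4 (0.19 with no thinning), for Hes1 with Dll4 (0.032 with no thinning, 0.023 with voom weights, -0.33 to 0.15 without 1 library, with 0.020 without E12.5 and 0.035 without E14.5) and, with Notch3, for Notch1 (-0.025 without E12.5), Notch2 (0.13 with voom weights, 0.26 without E14.5) and Hes1 (-0.046 with no thinning). The cause was not tested.

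Counts of NOTCH genes past 2-fold at E14.5 moved with the choice of cells. Including cells of several classes gave 1 higher in endothelial, 2 in surface epithelial and 2 in germ cells, and 0 lower in interstitial cells. Class markers read at 5000 UMIs gave 1 higher and 0 lower in interstitial, 2 higher in supporting and 0 in germ cells. Under this setting Heyl and Jag1 had too few UMIs in supporting cells to be measured. Cells of at least 10000 UMIs gave 1 higher and 0 lower in interstitial cells, and median-of-ratios scaling gave 1 higher in interstitial and 0 in germ cells. Few cells stood behind the endothelial values at E14.5 (36) and the cells with a Dll4 UMI at the first and last stage (9 and 6).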
